A study of Mus musculus with 2 samples.

Results

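The nuclear genes of oxidative phosphorylation were examined for promoter accessibility in young and aged hematopoietic stem cells (HSCs), the rare bone marrow cells that maintain all blood lineages. The genes were taken from the mouse annotation (GENCODE M21, mm10) as protein-coding genes of the nuclear chromosomes with symbols starting with Ndufa, Ndufb, Ndufc, Ndufs, Ndufv, Sdh, Uqcr, Cox4 to Cox8 or Atp5. This rule gave 98 gene entries of 21938, with 97 different symbols, since Atp5o was annotated as 2 genes. They comprised 38 entries of complex I, 4 of complex II, 8 of complex III, 18 of complex IV and 18 of complex V, and 12 genes of the Ndufaf and Sdhaf assembly factors. Single cell ATAC-seq, in which a transposase cuts accessible DNA in each nucleus, had been performed on 1 library of HSCs from 10-week-old C57BL/6 mice (Young) and 1 library from 20-month-old C57BL/6 mice (Aged). The labels name no treatment, and the mice described in the methods were females. In both groups the sort kept bone marrow cells negative for IL-7Rα (written IL-7 in the labels), lineage markers (Lin), CD34, CD48 and Flt3 and positive for Sca-1, c-Kit and CD150. How many mice went into a library is not stated in the sources used here, and a pool gives no spread between mice. With 1 library per group, age, sort, nuclei preparation and library cannot be told apart, no test between the ages was possible, and all 95% intervals below cover counting error only.

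Oxidative phosphorylation is the stage of respiration at which electrons from NADH and succinate pass through complexes I to IV of the inner mitochondrial membrane to oxygen, while protons are pumped across that membrane. Complex V, the ATP synthase, uses the proton gradient to make ATP. Mitochondrial DNA encodes a few core subunits of complexes I, III, IV and V, and nuclear genes encode all others, including every subunit of complex II. HSCs are mostly quiescent and are known to depend strongly on glycolysis at rest and to raise mitochondrial respiration when they are activated and differentiate. Accessibility of a promoter is not a measure of transcription, and RNA was not measured in these libraries.

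Barcodes that the authors had called as cells and that held 3000 to 20000 fragments in the authors' peaks were kept, which left 4887 of 5028 young and 3405 of 3694 aged cells, with medians of 9890 and 11020 unique nuclear fragments per cell. Of the kept barcodes 26 occurred in both libraries. The TSS enrichment was 5.78 in young and 5.30 in aged HSCs, and fragments shorter than the DNA around a nucleosome made up 59.8% and 55.0% of all fragments. Promoters of HSC markers were open in both libraries, with 212 and 214 fragments per 1000000 in-peak fragments (FPM) summed over 10 genes including Kit, Hlf and Meis1, although Mecom held 0.519 and 0.535 FPM at the 5′ end of its gene and Ly6a, which encodes Sca-1, 2.999 and 2.83 FPM. The sum hides differences between these genes, since the log2 ratio of aged to young levels was 0.44 at Slamf1, which encodes CD150, 0.21 at Procr and 0.21 at Gata2, but -0.096 at Kit and -0.080 at Hlf. The sums were 64.9 and 63.0 FPM over 7 B lineage genes, 18.5 and 17.9 FPM over 7 T lineage genes, 14.6 and 13.3 FPM over 8 granulocyte and monocyte genes, and 93.9 and 87.2 FPM over 7 erythroid genes. The T lineage sum likewise hides differences, with log2 ratios of -1.48 at Cd4 (2.11 and 0.726 FPM) and 0.44 at Bcl11b (7.99 and 10.9 FPM). Promoters of single mature-cell markers were near 0, with Ms4a1 at 0.346 FPM in young and 0.229 FPM in aged HSCs and Ctsg at 0.317 and 0.153 FPM. Open chromatin at markers of other lineages, such as Vpreb1 at 31.8 and 29.4 FPM, cannot be assigned to other cells from these sums, and its part in the results was not tested.

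The respiratory promoters were open in both ages and slightly less so in the aged library. Fragments with an end within 1 kb of a transcription start site (TSS) summed to 3262 FPM over all entries in young and 3053 FPM in aged HSCs, a ratio of 0.936 (95% interval 0.928 to 0.945). All protein-coding promoters together also held a smaller share of in-peak fragments in aged HSCs, with a ratio of 0.966 (0.965 to 0.966). Measured per 10000 fragments at all protein-coding promoters, the respiratory promoters held 80.1 in young and 77.7 in aged HSCs, and the ratio was 0.970 (0.961 to 0.978). The lower TSS enrichment and the smaller share of short fragments of the aged library stood beside this difference, and their part in it was not tested.

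Of the 98 entries, 92 held at least 200 fragments summed over both libraries. Their log2 ratios of aged to young FPM, computed with 1 fragment added to each count, had a median of -0.098 and quartiles of -0.15 and -0.042. Over the 14305 protein-coding promoters with as many fragments the median was -0.056 and the quartiles were -0.12 and 0.047, so that the respiratory promoters lay 0.042 below the median of all promoters. Promoters of similar openness were closer to them, since 9197 protein-coding promoters with a mean of 20 to 80 FPM had a median of -0.076, while 79 respiratory promoters in this range had a median of -0.098. Ratios below 0 were found for 84 of the 92 promoters, or 91.3%, beside 66.5% of all tested promoters and 79.8% of those with 20 to 80 FPM. At least 1.1-fold lower levels in aged HSCs were found for 27 respiratory promoters, or 29.3%, beside 20.9% of all tested promoters. Only 1 respiratory promoter was at least 1.1-fold higher, or 1.09%, beside 15.8% of all. Promoters of similar openness were closer here too. With 20 to 80 FPM, 26.6% of the respiratory promoters and 22.9% of all were at least 1.1-fold lower, and 0% and 3.86% were higher. With levels scaled to the median promoter instead, 12 of the 92 were at least 1.1-fold lower and 2 higher, beside 8.84% and 20.8% of all promoters. The number of lower promoters thus depends on the scaling, while few were higher under either. The counts by complex and by list below use the first scaling and depend on it in the same way. They are to be read beside these shares of all promoters (66.5% below 0, 20.9% at least 1.1-fold lower and 15.8% higher). Most respiratory promoters had 20 to 80 FPM, and of all promoters in that range 79.8% were below 0, 22.9% lower and 3.86% higher. The SD of the log2 ratios over the 92 promoters was 0.090, and the median counting error of a single promoter was 0.066.

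**Figure D1:**
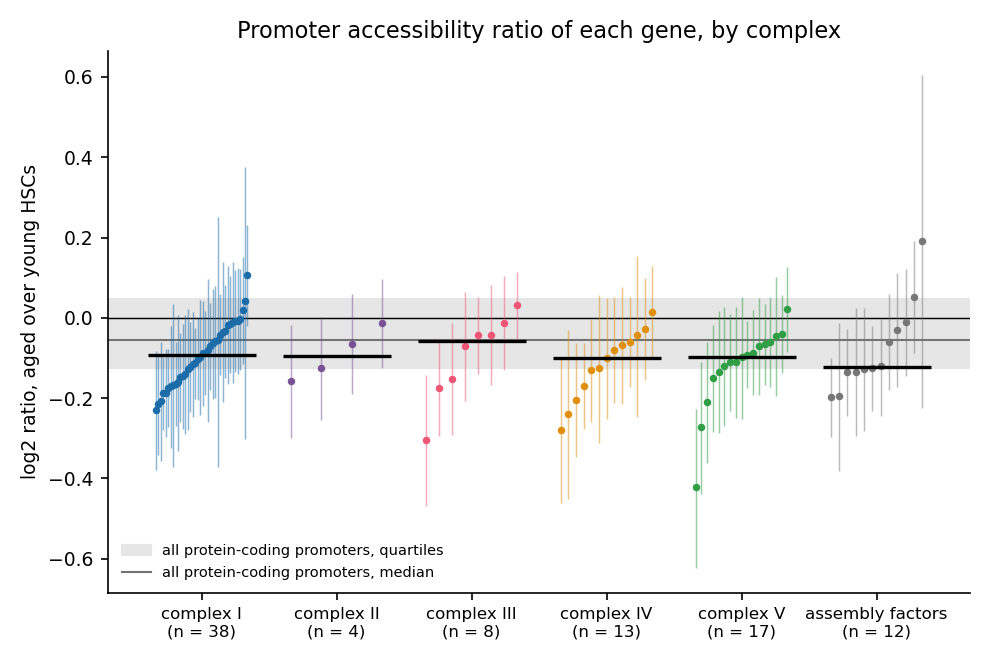
Log2 ratio of promoter fragments (aged over young HSCs, y axis) for the 92 respiratory genes with at least 200 fragments, by complex and ordered by value within each; thin lines are 95% counting intervals, thick black bars the medians, and the grey line and band the median (-0.056) and quartiles of 14305 protein-coding promoters. Most points lie below 0 in each group, and the medians run from -0.12 for assembly factors to -0.057 for complex III.

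Levels differed far more between genes than between ages. Among the 92 promoters the young levels ran from 3.11 FPM at Sdhaf1 to 81.5 FPM at Atp5g1, the aged levels from 3.55 FPM at Sdhaf1 to 80.3 FPM at Uqcrq, and the median was 33.0 FPM in young and 30.9 FPM in aged HSCs. The order of the promoters was nearly the same in both libraries, with a Spearman correlation of 0.991 over the 92 genes, which is a description, as both libraries share the same windows. Peaks called here reached into the windows of 91 entries, with a median width of 949 bp. For Sdhaf1 and Atp5g2 the peak was centred outside the window, 1626 and 1215 bp from the 5′ end. The windows of 36 entries also held the TSS of another protein-coding gene, whose fragments cannot be told apart from those of the respiratory gene. Their summed ratio was 0.938 (0.926 to 0.951), and that of the 62 entries alone in their window was 0.934 (0.923 to 0.946).

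**Figure D2:**
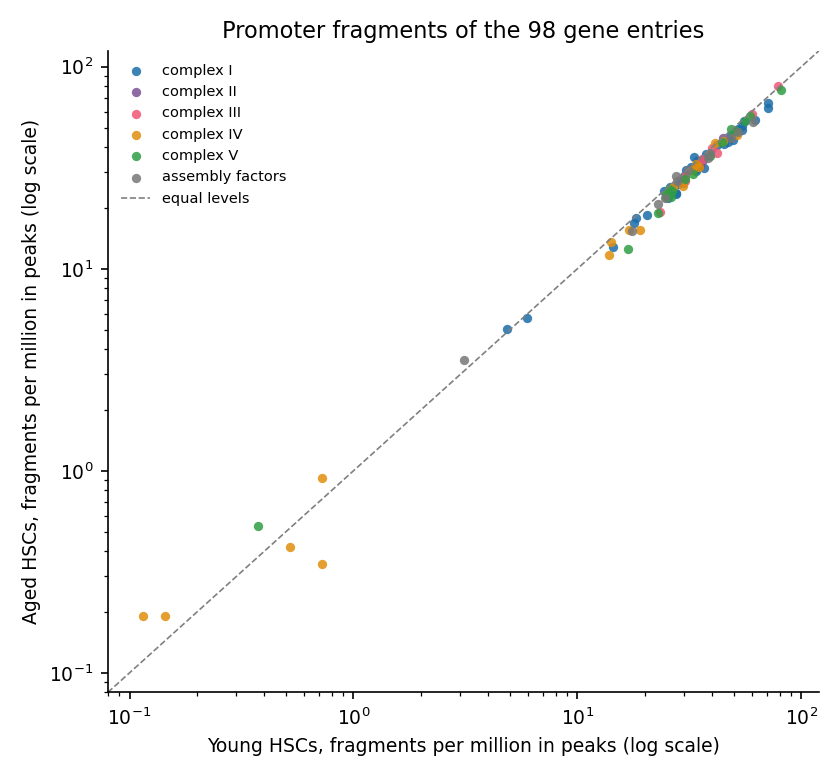
Promoter levels of the 98 respiratory gene entries in young (x axis) and aged (y axis) HSCs, in FPM on log axes, coloured by complex, with a dashed line of equal levels. The 92 promoters above 3 FPM follow the line from slightly below, and 6 entries with few fragments, among them Cox7b2, Cox8c, Cox8b and Cox6a2, lie under 1 FPM in both libraries.

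Complex I, the NADH dehydrogenase and the entry point for most electrons, summed to 1344 FPM in young and 1255 FPM in aged HSCs, a ratio of 0.934 (0.920 to 0.947). Ratios were below 0 for 35 of its 38 promoters. At least 1.1-fold lower were 13, or 34.2%, and 0 were at least 1.1-fold higher. The shares were 20.9% and 15.8% of all promoters and 22.9% and 3.86% of those with 20 to 80 FPM. The 7 core subunits with the flavin and the iron-sulfur clusters had a ratio of 0.941 (0.913 to 0.971), and the 31 other entries, mostly accessory subunits, of 0.931 (0.917 to 0.946). The intervals of both overlapped.

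The complex I promoters with the most fragments were those of the accessory subunits Ndufa11, Ndufa13 and Ndufb5. Ndufa11 was at 71.2 FPM in young and 65.9 FPM in aged HSCs, a log2 ratio of -0.11 (-0.20 to -0.024). Ndufa13, also known as GRIM-19, was at 71.3 and 62.5 FPM, a log2 ratio of -0.19 (-0.28 to -0.098). Ndufb5 of the membrane arm was at 61.8 and 54.8 FPM, a log2 ratio of -0.17 (-0.27 to -0.078). All 3 were lower in the aged library by more than their counting error with this scaling. Scaled to all promoters, every log2 ratio is higher by the move of the overall median from -0.056 to -0.0055, and the interval of Ndufa11 then includes 0. The lowest ratios of this complex were those of the accessory subunits Ndufa8, at 27.7 FPM in young and 23.6 FPM in aged HSCs (log2 ratio -0.23, -0.38 to -0.083), and Ndufa12, at 36.8 and 31.7 FPM (-0.21, -0.34 to -0.088). Ndufv1, the subunit that binds FMN and oxidizes NADH, was at 54.5 and 48.6 FPM (-0.16, -0.27 to -0.061), while its neighbour in the enzyme, Ndufv2, was at 55.3 and 53.7 FPM (-0.042, -0.14 to 0.058).

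Few complex I promoters lay above 0. Ndufa10, an accessory subunit, was at 33.3 FPM in young and 35.8 FPM in aged HSCs (log2 ratio 0.11, -0.021 to 0.23), and Ndufb7 was at 30.5 and 30.8 FPM (0.019, -0.12 to 0.15). The intervals of both included 0. Ndufa4 was counted here by its symbol, although its product is now known as a subunit of complex IV. It was at 46.9 FPM in young and 42.3 FPM in aged HSCs (-0.15, -0.26 to -0.037).

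Complex II, the succinate dehydrogenase shared with the tricarboxylic acid cycle, summed to 146 FPM in young and 138 FPM in aged HSCs, a ratio of 0.945 (0.905 to 0.986). All 4 ratios were below 0. Sdhb, the iron-sulfur subunit, had the highest level, 44.8 FPM in young and 44.3 FPM in aged HSCs (log2 ratio -0.014, -0.12 to 0.097). The membrane anchors Sdhc and Sdhd were at 36.3 and 34.7 FPM (-0.064, -0.19 to 0.059) and at 35.3 and 32.3 FPM (-0.13, -0.25 to 0.0021). Sdha, the flavoprotein with the succinate site, was at 29.7 and 26.6 FPM (-0.16, -0.30 to -0.018) and was the only complex II gene at least 1.1-fold lower.

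Complex III, the cytochrome bc1 complex that passes electrons from ubiquinol to cytochrome c, summed to 341 FPM in young and 325 FPM in aged HSCs, a ratio of 0.955 (0.929 to 0.982). Uqcrq, a small subunit, was the most open promoter of the aged library among these genes, at 78.6 FPM in young and 80.3 FPM in aged HSCs (log2 ratio 0.031, -0.052 to 0.11). Uqcrh, the hinge protein, was at 60.4 and 58.6 FPM (-0.043, -0.14 to 0.053). The small subunits Uqcr10 and Uqcr11 were lower in the aged library. Uqcr10 was at 42.0 and 37.2 FPM (-0.17, -0.29 to -0.057). Uqcr11, on chromosome 10 with its TSS at 80406830, was at 23.5 and 18.99 FPM (-0.30, -0.47 to -0.14), the lowest ratio of the complex. The summed ratio was 0.958 (0.911 to 1.01) for the core proteins and the Rieske protein (Uqcrc1, Uqcrc2 and Uqcrfs1) and 0.954 (0.922 to 0.987) for the 5 small subunits, with overlapping intervals.

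Complex IV, the cytochrome c oxidase that reduces oxygen, summed to 387 FPM in young and 360 FPM in aged HSCs, a ratio of 0.931 (0.906 to 0.955). Cox8a, the ubiquitous form of subunit VIII, was at 51.8 FPM in young and 46.1 FPM in aged HSCs (log2 ratio -0.17, -0.28 to -0.063). Cox4i1, the ubiquitous form of subunit IV, was at 44.7 and 42.9 FPM (-0.060, -0.17 to 0.052). Cox7a2, the form of subunit VIIa found in most tissues, was at 41.3 and 41.8 FPM (0.016, -0.099 to 0.13). Thus Cox8a was lower by more than its counting error and the other two differed by less than theirs.

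Tissue-restricted isoforms were present in this family, most of them in complex IV. Promoters of Cox7b2, Cox8c, Cox8b and Cox6a2, isoforms of testis or of heart and skeletal muscle, were at or near 0, with 0.144, 0.115, 0.721 and 0.519 FPM in young and 0.191, 0.191, 0.917 and 0.420 FPM in aged HSCs, which are 4 to 25 fragments in a library. The other members of this list were open to some degree. Cox6b2 was at 33.8 FPM in young and 33.1 FPM in aged HSCs (log2 ratio -0.027, -0.16 to 0.10). Cox7a1, the heart and muscle form of subunit VIIa, was at 18.98 and 15.6 FPM (-0.28, -0.46 to -0.100). Cox4i2 was at 14.1 and 13.6 FPM (-0.044, -0.25 to 0.16), and Ndufa4l2, known to be induced in hypoxia, was at 5.97 and 5.73 FPM (-0.056, -0.37 to 0.25). Of the pair for subunit VIIa, the muscle form Cox7a1 was lower in the aged library by more than its counting error and the common form Cox7a2 differed by less than its counting error. Cox7a2l, which helps complexes III and IV to associate, held 25 and 9 fragments at its annotated 5′ end, but at another start 3000 bp away it was at 44.5 FPM in young and 42.6 FPM in aged HSCs (-0.064).

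Complex V summed to 650 FPM in young and 608 FPM in aged HSCs, a ratio of 0.935 (0.917 to 0.955). Its most open promoters were those of Atp5g1, which encodes a c subunit of the proton-driven rotor, Atp5j, the coupling factor 6 of the peripheral stalk, and Atp5f1, the b subunit of the same stalk. Atp5g1 was at 81.5 FPM in young and 76.5 FPM in aged HSCs (log2 ratio -0.091, -0.17 to -0.0086), Atp5j at 58.7 and 57.1 FPM (-0.041, -0.14 to 0.056), and Atp5f1 at 56.3 and 53.8 FPM (-0.066, -0.17 to 0.033). The intervals of the stalk subunits included 0. By part of the enzyme, the ratio was 0.924 (0.889 to 0.961) for the 5 subunits of the catalytic F1 head and its central stalk, 0.910 (0.869 to 0.953) for the 3 genes of the c subunit, 0.957 (0.921 to 0.995) for the peripheral stalk and 0.913 (0.869 to 0.960) for Atp5j2, Atp5k, Atp5l and Atp5mpl of the membrane part.

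The 3 genes of the c subunit encode the same mature protein behind different import sequences. Atp5g3 was at 30.2 FPM in young and 28.0 FPM in aged HSCs (log2 ratio -0.11, -0.25 to 0.027). Atp5g2, on chromosome 15 with its annotated 5′ end at 102672352, was at 16.9 and 12.6 FPM (-0.42, -0.62 to -0.23), the lowest ratio of all 92 promoters. The start of Atp5g2 with the most fragments lay 1225 bp away, where the gene was at 51.7 and 44.5 FPM with a log2 ratio of -0.21. Thus the difference at the start with the most fragments was smaller than that around the outermost start. Atp5j2, the f subunit, was at 22.9 FPM in young and 18.9 FPM in aged HSCs (-0.27, -0.44 to -0.11), and at its start with the most fragments, 551 bp away, at 24.4 and 20.1 FPM (-0.28). Windows of 250 bp around the 5′ end, which lies 642 bp from the centre of its peak, held 75 and 64 fragments, fewer than the minimum, with a log2 ratio of 0.18. Atp5d, the delta subunit of the central stalk, was at 26.1 and 22.6 FPM at its 5′ end (-0.21, -0.36 to -0.059) and at 82.9 and 75.3 FPM at a start 2825 bp away (-0.14), within 1 kb of the TSS of another protein-coding gene, so that these fragments cannot be told apart from those of its promoter. The log2 ratio at its 5′ end was 0.016 when cells were thinned to 3000 in-peak fragments. Atp5s, the coupling factor B, was at 48.7 and 49.5 FPM (0.021, -0.085 to 0.13). The second annotated entry of Atp5o was nearly empty, with 13 and 14 fragments, while the first was at 25.7 and 24.9 FPM (-0.045, -0.19 to 0.10).

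**Figure D3:**
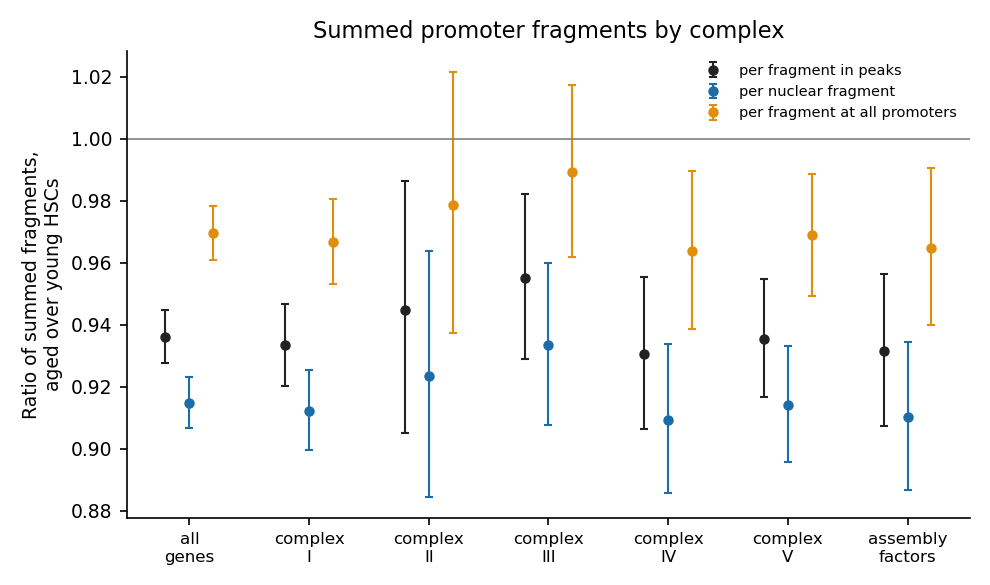
Ratio of summed promoter fragments (aged over young HSCs, y axis, not starting at 0) for all respiratory genes and by complex, with 95% counting intervals, scaled to fragments in peaks (black), to all nuclear fragments (blue) or to fragments at all protein-coding promoters (orange). Points lie below 1 in every group and scaling, from 0.909 to 0.989, and the intervals of complexes II and III reach above 1 when scaled to all promoters.

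The 12 assembly factors, which insert cofactors or join modules of complexes I and II but are not part of them, summed to 394 FPM in young and 367 FPM in aged HSCs, a ratio of 0.932 (0.907 to 0.956). Sdhaf1, which helps to insert the iron-sulfur clusters of complex II, was the promoter at least 1.1-fold higher, at 3.11 FPM in young and 3.55 FPM in aged HSCs. It held 108 and 93 fragments, just above the minimum, and its interval was -0.23 to 0.60 around a log2 ratio of 0.19. The sign was not stable, since the log2 ratio was -0.22 with windows of 500 bp, -0.76 with windows of 250 bp on either side and -0.29 with short fragments alone. Ndufaf5, which modifies a core subunit of complex I, was at 27.7 and 28.7 FPM (0.053, -0.087 to 0.19). The 10 other assembly factors had ratios below 0.

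The X-linked genes Ndufa1, Ndufb11 and Cox7b summed to 61.7 FPM in young and 55.4 FPM in aged HSCs, a ratio of 0.898 (0.839 to 0.960), beside 0.962 (0.957 to 0.967) for all X-linked protein-coding promoters. Cox7b was at 13.8 and 11.7 FPM (log2 ratio -0.24, -0.45 to -0.030), Ndufa1 at 14.5 and 12.9 FPM (-0.17, -0.37 to 0.033) and Ndufb11 at 33.4 and 30.8 FPM (-0.12, -0.25 to 0.015). The interval of their sum overlapped those of the autosomal members, at 0.937 (0.928 to 0.945), and of all X-linked promoters.

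Genes of the same pathway with other symbols were compared next. Among 7 genes of complex III outside the prefixes, 5 were at least 1.1-fold lower and 0 were higher, and the summed ratio was 0.902 (0.875 to 0.931). The shares were 20.9% and 15.8% of all promoters and 22.9% and 3.86% of those with 20 to 80 FPM, and 7 genes are few for such a count. The lowest were the assembly factors Uqcc1, at 35.1 FPM in young and 28.9 FPM in aged HSCs (log2 ratio -0.28), and Lyrm7, at 47.1 and 40.7 FPM (-0.21). The highest were Bcs1l, which places the Rieske protein, at 70.7 and 68.9 FPM (-0.036), and the heme subunit Cyc1, at 23.0 and 23.2 FPM (0.0078). Among 8 assembly factors and partners of complex I outside the prefixes 0 were at least 1.1-fold lower or higher, and the ratio was 0.988 (0.960 to 1.02). They ran from Nubpl at 17.0 and 15.5 FPM (-0.13) and Timmdc1 at 41.2 and 38.4 FPM (-0.10) to Acad9 at 26.6 and 27.1 FPM (0.028) and Tmem70 at 19.5 and 21.2 FPM (0.12). Thus the extra genes of complex III lay below, and those of complex I above, the ratio of their own complexes, with intervals that did not overlap for complex I.

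Complex IV had 20 assembly factors outside the prefixes, with 4 (20%, beside 20.9% of all promoters) at least 1.1-fold lower, 0 higher and a ratio of 0.943 (0.926 to 0.959). Cox19, a copper carrier protein, was at 5.45 FPM in young and 2.33 FPM in aged HSCs (log2 ratio -1.21, -1.67 to -0.80). This was far below all others of this list, of which Cox17 was next at 32.4 and 28.5 FPM (-0.18). Cox19 held only 189 and 61 fragments at its annotated 5′ end. Levels at its other starts are not given, so its ratio describes that window and may not be that of its main promoter. Cox10 for heme synthesis and the translational activator Taco1 were highest, at 32.6 and 32.3 FPM (-0.011) and 36.9 and 38.4 FPM (0.056). The 3 assembly factors and inhibitor of complex V had a ratio of 0.957 (0.902 to 1.02), with 0 past 1.1-fold, from Atpaf2 (-0.12) to Atpif1 (-0.022). Cytochrome c of somatic cells, Cycs, was at 55.6 and 52.6 FPM (-0.080), and its testis form Cyct held under 1 FPM in both libraries. The adenine nucleotide carriers Slc25a4 and Slc25a5 had log2 ratios of -0.051 and -0.038.

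Regulators of nuclear respiratory genes and of mitochondrial DNA were 16 tested promoters of 19, of which 6 (37.5%) were at least 1.1-fold lower and 0 higher, with a summed ratio of 0.927 (0.910 to 0.944). Of all promoters 20.9% were lower and 15.8% higher, and of those with 20 to 80 FPM 22.9% and 3.86%. Polrmt, the RNA polymerase of mitochondria, was at 29.5 FPM in young and 22.9 FPM in aged HSCs (log2 ratio -0.36, -0.51 to -0.22). Gabpb2, a subunit of the ETS family factor GABP, was at 53.6 and 46.8 FPM (-0.20). At the other end, Polg2, the accessory subunit of the mitochondrial DNA polymerase, was at 64.7 and 65.1 FPM (0.0084) and the coactivator Ppargc1b at 31.6 and 33.98 FPM (0.11). Its better known relative Ppargc1a was nearly closed, at 0.836 and 0.879 FPM.

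Of the 14 genes of the tricarboxylic acid cycle, which supplies the electrons, 4 were at least 1.1-fold lower and 0 higher, and the ratio was 0.921 (0.902 to 0.940). Sucla2 was at 42.4 FPM in young and 35.2 FPM in aged HSCs (log2 ratio -0.27), while Suclg2 was at 30.8 and 31.2 FPM (0.018) and Idh3b at 17.1 and 18.6 FPM (0.12). In the glycolysis list, which also holds the regulator Hif1a, 2 of 19 tested entries were at least 1.1-fold lower and 3 higher. The ratio was 0.980 (0.961 to 0.999). Hif1a was at 6.86 and 5.54 FPM (-0.30) and 1 of 2 annotated entries of Aldoa at 16.4 and 13.8 FPM (-0.25). Ldhb was at 33.1 and 37.8 FPM (0.19) and Ldha at 3.66 and 5.43 FPM (0.57). Hif1a held only 238 and 145 fragments and Ldha 127 and 142 at the annotated 5′ end. Levels at their other starts are not given, so these ratios describe those windows and may not be those of the main promoters. The shares at least 1.1-fold lower and higher were 10.5% and 15.8% in glycolysis and 28.6% and 0% in the cycle. They were 20.9% and 15.8% of all promoters and 22.9% and 3.86% of those with 20 to 80 FPM. With 19 and 14 tested promoters, these counts are too few to set either list apart. Promoters of the mitochondrial ribosome had a median log2 ratio of -0.080 over 76 genes, and those of the cytosolic ribosome of -0.071 over 79 genes, beside -0.098 for the respiratory genes.

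The absolute difference between the ages was largest near the centre of the promoters, where most cut sites lay. Cut sites at the respiratory genes, in bins of 20 bp, peaked 30 bp upstream of the TSS in both libraries. The peak was at 1.59 per gene and 1000000 in-peak cut sites in young and 1.48 in aged HSCs. At 170 bp upstream they were 0.605 and 0.533, a larger difference in proportion. Some bins went the other way, with 0.355 in young and 0.366 in aged HSCs at 190 bp downstream and 0.269 and 0.297 at 410 bp downstream. More than 900 bp away the levels were 0.0736 and 0.0706. All protein-coding genes peaked at 0.829 and 0.774 on the same scale, 50 bp upstream. Within 250 bp of the TSS lay 63.4% of the cut sites of the respiratory windows in young and 62.4% in aged HSCs. Short fragments, defined as above, made up 65.7% (65.4 to 66.0) of fragments at the respiratory promoters in young and 62.6% (62.2 to 62.9) in aged HSCs, and 67.6% and 63.9% at all protein-coding promoters. The share of short fragments was thus lower in the aged library at both sets of promoters.

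**Figure D4:**
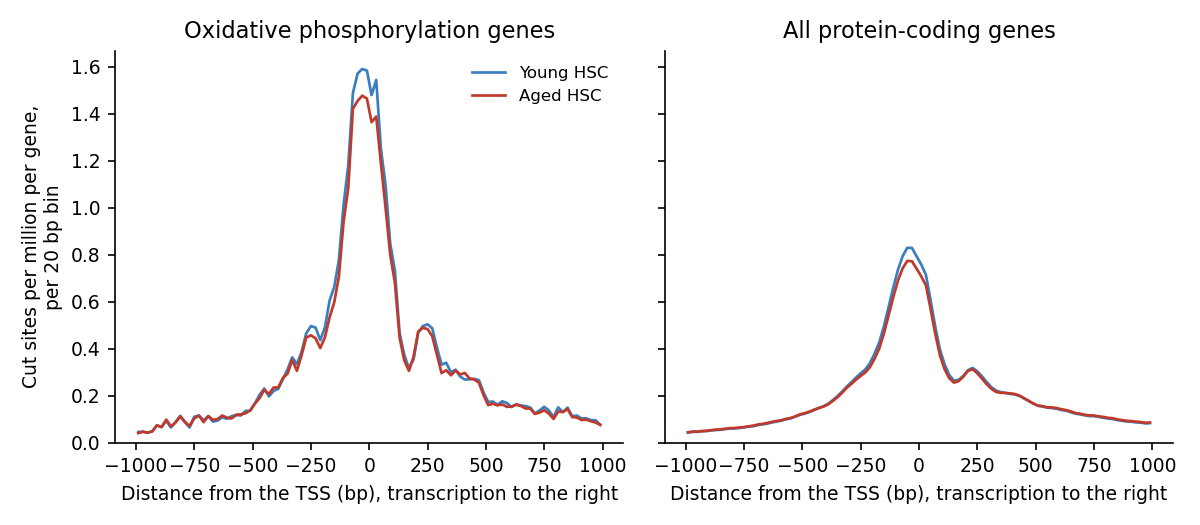
Cut sites per gene and 1000000 in-peak cut sites in 20 bp bins (y axis) against the distance from the TSS (x axis, transcription to the right) for the respiratory genes (left) and all protein-coding genes (right), young in blue and aged in red. The summit is lower in the aged library, 1.59 against 1.48 at the respiratory genes and 0.829 against 0.774 at all genes, while in the flanks the curves of all genes lie close together and cross. The curves of the respiratory genes also cross, with the aged library higher in some bins, such as that at 410 bp downstream.

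Promoter sequence was read from RefSeq (GRCm38.p6, the build of mm10) for windows of 250 bases before to 50 bases after each RefSeq start. Entries were found for 79 members by symbol, and 72 of them had their start within 1 kb of the annotated 5′ end and enough fragments. Their GC content had a median of 58.5%, beside 61.3% for 10334 protein-coding promoters treated in the same way. Sequences related to binding sites of factors known to regulate respiratory genes were searched on both strands, each on its own and whether or not it overlapped another. The ETS core CCGGAAG, bound by GABP, was in 26.4% of the respiratory promoters and in 17.3% of all. The NRF1 core GCGCANGCG was in 30.6% and 13.4%, and the YY1 core AAGATGGC in 12.5% and 4.42%. The SP1 and KLF core GGGCGG was less frequent in respiratory promoters than in all (45.8% and 66.6%), the NFY core CCAAT was in 44.4% and 38.2%, the cAMP response element TGACGTCA in 5.56% and 3.37%, the E-box CACGTG in 6.94% and 10.2% and TATAAA in 8.33% and 6.50%. Matches describe letters and not binding.

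Ratios of respiratory promoters with and without a motif differed to various degrees, and the groups with a motif were small. The median log2 ratio was -0.12 with and -0.091 without the ETS core, -0.11 with and -0.10 without the NRF1 core, and -0.080 with and -0.11 without the YY1 core. Over all promoters the medians were -0.088 with and -0.052 without the ETS core and -0.087 with and -0.055 without the NRF1 core. For the YY1 core they were -0.090 with and -0.058 without. Each of these 3 cores thus went with a lower median over all promoters. Among the respiratory promoters the YY1 core went the other way. Among the others, respiratory medians were -0.12 with and -0.080 without CCAAT, -0.12 with and -0.098 without GGGCGG, and -0.091 with and -0.11 without the E-box. The widest gaps rested on few promoters, with -0.022 for 6 promoters with TATAAA and -0.11 for those without, and -0.030 for 4 promoters with the cAMP response element and -0.11 for those without. By GC content, the medians of the respiratory promoters were -0.099 for 36 promoters of 50% to 60% and -0.12 for 26 of 60% to 70%, beside -0.060 and -0.062 for all promoters of the same range. Below 50% the median was -0.080 for 7 promoters, beside -0.031 for all. From 70% upward it was -0.042 for 3 promoters, above the -0.064 of all.

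For each complex, the promoter with the most fragments summed over both libraries, among those with a match and an entry, is shown from 170 bases before to 30 bases after its RefSeq start, 5′ to 3′ on the strand of the gene, with ETS and NRF1 cores in capitals, to let the sites be seen beside the levels above. They are Ndufa11 at chr17:56717592-56717791 (plus strand), Sdhb at chr4:140961101-140961300 (plus), Uqcrh at chr4:116075041-116075240 (minus), Cox8a at chr19:7217587-7217786 (minus) and Atp5h at chr11:115419890-115420089 (minus).
Ndufa11: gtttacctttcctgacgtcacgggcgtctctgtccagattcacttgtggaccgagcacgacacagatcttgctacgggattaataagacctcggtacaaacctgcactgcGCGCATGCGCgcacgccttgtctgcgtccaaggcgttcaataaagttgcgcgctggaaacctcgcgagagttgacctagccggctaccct
Sdhb: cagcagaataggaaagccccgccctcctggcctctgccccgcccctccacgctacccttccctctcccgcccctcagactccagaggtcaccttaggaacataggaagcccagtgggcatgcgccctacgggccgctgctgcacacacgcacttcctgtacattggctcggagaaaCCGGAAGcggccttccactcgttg
Uqcrh: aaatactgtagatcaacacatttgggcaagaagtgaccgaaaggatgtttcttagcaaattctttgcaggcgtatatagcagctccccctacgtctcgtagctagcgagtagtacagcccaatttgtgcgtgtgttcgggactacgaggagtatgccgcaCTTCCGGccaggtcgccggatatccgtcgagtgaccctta
Cox8a: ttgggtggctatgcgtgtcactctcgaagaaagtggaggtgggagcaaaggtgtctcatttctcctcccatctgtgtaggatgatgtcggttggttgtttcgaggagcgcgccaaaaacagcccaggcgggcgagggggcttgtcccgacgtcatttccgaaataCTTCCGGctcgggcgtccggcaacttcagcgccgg
Atp5h: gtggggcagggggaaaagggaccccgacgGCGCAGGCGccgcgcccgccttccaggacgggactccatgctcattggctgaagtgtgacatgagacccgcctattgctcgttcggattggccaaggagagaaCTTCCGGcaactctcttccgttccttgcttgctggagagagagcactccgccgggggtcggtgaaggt
In Ndufa11 the capitals hold NRF1 cores on both strands that overlap, from base -60 to base -51 before the start. The ETS core lies at bases 7 to 13 after the start in Sdhb, at -10 to -4 in Uqcrh, at -38 to -32 in Atp5h and across the start, from -5 to 2 with no base 0, in Cox8a, and it is on the opposite strand in the last 3. Atp5h also has an NRF1 core at -141 to -133. These positions count from the RefSeq start, which can differ from the annotated 5′ end used for the fragments. Atp5h, the d subunit of the peripheral stalk, was at 39.1 FPM in young and 36.2 FPM in aged HSCs (log2 ratio -0.11, -0.23 to 0.011).

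Peaks 1 to 50 kb from the 5′ end of the nearest protein-coding gene, called distal here, were assigned to a respiratory gene by distance alone. Other annotated starts were not left out, and the starts of Cox7a2l and Atp5g2 with the most fragments lie in such peaks. With at least 200 fragments there were 125 such peaks at 57 genes, and their median log2 ratio was -0.059, beside -0.022 for 35742 distal peaks of all genes. At least 2-fold lower levels were found at 3 of them, or 2.4%, beside 0.425% of all, and at least 2-fold higher at 1, or 0.8%, beside 1.54%. The lower peaks were at chr10:80131506-80132139, 6810 bp from Atp5d (5.42 FPM in young and 1.72 FPM in aged HSCs, log2 ratio -1.63, -2.16 to -1.18), at chr7:128180067-128180845, 25931 bp from Cox6a2 (5.39 and 2.03 FPM, -1.39, -1.88 to -0.97), and at chr15:102673641-102673864, 1400 bp from Atp5g2 (5.05 and 2.22 FPM, -1.17, -1.64 to -0.75). These 3 held 188 and 45, 187 and 53, and 175 and 58 fragments in young and aged HSCs, not far above the minimum of 200. They passed it mostly through the young library, where they were high. So few peaks are not enough to set the respiratory genes apart by these shares. The higher peak was at chr17:83522979-83523551, 5935 bp from Cox7a2l (6.34 and 14.5 FPM, 1.19, 0.95 to 1.44). Both Atp5d and Atp5g2 were also among the 8 promoters with the lowest ratios, that of Atp5d not when thinned. Whether these elements act on the named genes was not tested.

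Mitochondrial read pairs, counted per barcode by the authors, were fewer in the aged library by far more than the nuclear promoters. The median was 1.84% of a cell's read pairs in young (quartiles 1.39% and 2.35%) and 0.859% in aged HSCs (0.576% and 1.20%), a ratio of 0.466. In pairs per cell the medians were 239 and 116. The distributions overlapped. Of the aged cells 95.1% lay under the median of the young library, and 7.45% of young cells under that of the aged library. Cells of 1 library are no replicates of an age, so no interval is given for these shares. Summed over cells the shares were 1.88% and 0.938%. Other classes of read pairs that did not yield nuclear fragments differed less. Duplicates made up 15.1% of pairs in young and 13.2% in aged HSCs, pairs of low mapping quality 6.91% and 6.81%, chimeric pairs 1.29% and 1.21% and unmapped pairs 1.09% and 1.13%. Nuclei had been isolated before the transposase was added, so this column counts mitochondrial DNA that stayed with a nucleus and was cut, and mitochondrial DNA per cell, its loss during isolation and its access to the transposase cannot be told apart.

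The gap was present at every depth. In bands of cells that began at 3000, 6000, 9000 and 12000 in-peak fragments, the ratio of the medians was 0.443, 0.471, 0.467 and 0.518. In the same 4 bands the ratio of the respiratory promoters was 0.926, 0.931, 0.946 and 0.944, beside 0.949, 0.960, 0.975 and 0.967 for all protein-coding promoters. Relative to all promoters it was 0.976, 0.970, 0.970 and 0.976. Barcodes not called as cells, with at least 100 read pairs and under 1000 in-peak fragments, held 2.23% mitochondrial pairs among young and 2.14% among aged barcodes when summed, although their medians were 1.73% and 0.417%. Without these limits, all barcodes not called as cells held 2.86% and 1.53% when summed, a ratio of 0.536.

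Within a library, the nuclear promoters varied little with the mitochondrial share. Cells were divided into 4 bins of similar size by their mitochondrial percentage, with medians from 1.05% to 2.77% in young and from 0.398% to 1.46% in aged HSCs. The respiratory promoters held 32.5, 32.5, 32.5 and 33.0 fragments per 10000 in peaks in the young bins and 30.4, 30.4, 30.6 and 30.8 in the aged bins, from the lowest to the highest mitochondrial share. The lowest young bin and the highest aged bin had mitochondrial medians of 1.05% and 1.46% and respiratory promoter shares of 32.5 (32.1 to 32.8) and 30.8 (30.4 to 31.3). At all protein-coding promoters the same bins held 40.4 and 39.5 fragments per 100 in peaks. Fragments at all protein-coding promoters also varied, from 40.4 to 41.1 per 100 in peaks over the young and from 39.2 to 39.5 over the aged bins. The median depth was 7197 fragments in the peaks called here in the lowest and 6390.5 in the highest young bin. The part of these differences was not tested. Over single cells the Spearman correlation of both measures was 0.033 over 4887 young and 0.020 over 3405 aged cells, which share depth and library and are no independent samples.

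**Figure D5:**
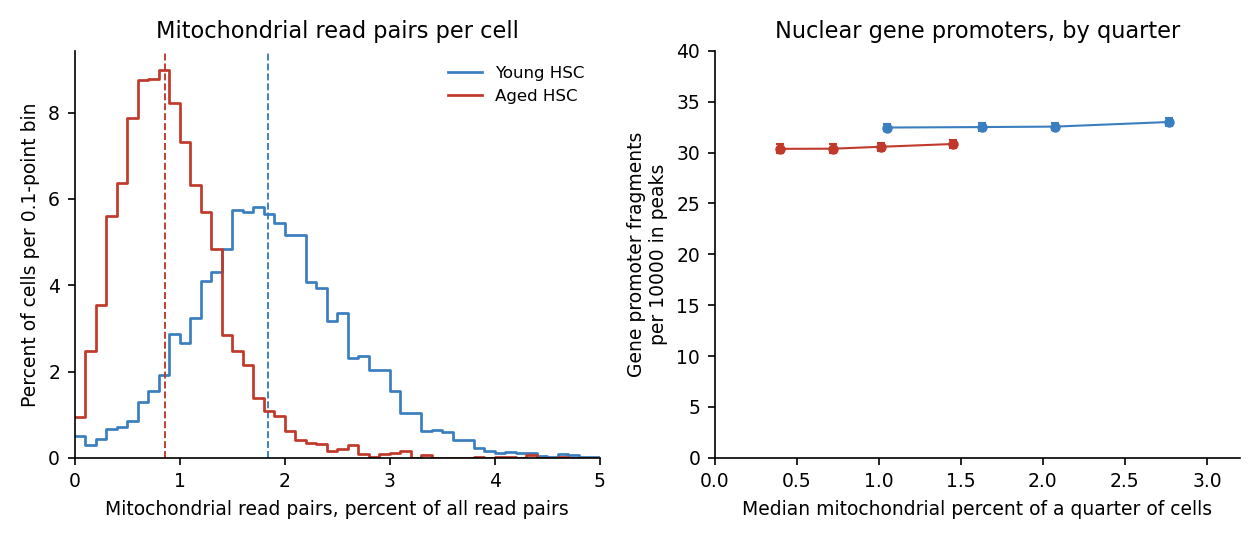
Left, percent of cells (y axis) per bin of 0.1 percentage points of mitochondrial read pairs (x axis), with dashed lines at the medians of 1.84% in young (blue) and 0.859% in aged (red) HSCs. Right, respiratory promoter fragments per 10000 in-peak fragments (y axis, bars are 95% counting intervals) against the median mitochondrial percentage of each of 4 bins of cells. The aged bins lie between 30.4 and 30.8 and the young bins between 32.5 and 33.0.

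The difference at the promoters was small in any single cell. With each cell thinned to 3000 in-peak fragments, which left out 98 young and 134 aged cells with fewer, the respiratory promoters together held 9.33 ± 3.18 (mean ± SD over cells) fragments in 4789 young cells and 8.74 ± 3.05 in 3271 aged cells, with medians of 9 and 8. Without thinning the medians were 22 and 23 fragments, at median depths of 8203 and 8887 fragments in the peaks of the authors. The variance over cells was 1.08 times the mean in young and 1.06 times in aged HSCs. What subset of cells could be detected at this depth was not tested.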

How the data were processed

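The deposited counts were 2 lists of unique nuclear fragments with their barcodes and 2 tables with counts of read pairs or fragments per barcode, not normalized. The authors had aligned reads to mm10, removed duplicates and called cells with Cell Ranger ATAC, which the submitters' processing notes name beside Signac. No mitochondrial fragment was listed, so mitochondrial counts came from the tables. Here, a fragment was counted if an end lay within 1 kb of the 5′ end of a gene (GENCODE M21). Levels were scaled to fragments in peaks, which were called on each library in windows of 151 bp against a local background of 10000 bp at q of 0.001 and merged (166208 peaks with 34673041 young and 26165429 aged fragments). Ratios had 1 fragment added to each count, and promoters or peaks with under 200 fragments in sum were not tested. The intervals are exact (Poisson or Clopper-Pearson) at 95%. Doublets were not called. The calculations used Python 3.11.15, numpy 2.4.6 and scipy 1.17.1 and were tested on simulated data. The genes and lists were chosen with earlier results of these data known. Named were the 3 genes per complex with the most fragments, the 8 highest and 8 lowest ratios, tissue-restricted and X-linked genes and, from other lists, the 2 highest and 2 lowest tested ratios. Some genes that this rule names are not reported here. Others, such as Ndufv1, Ndufa4, Sdha and the distal peaks, were named for their role or after their values were seen. Alternatives covered the scaling, window, TSS, cells, thinning, fragment length, minimum and added count.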

Additional observations from a re-analysis of the deposited data

How the results depend on the processing

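No ratio or median in the comparisons changed direction under the 139 alternative values. The counts past 1.1-fold, which are among these values, have no direction and could not be called reversed. Of the 139 values, 103 stayed within the counting interval or within 1.5 times the count. Scaled to all nuclear fragments, the ratio was 0.915 for all genes, 0.912 for complex I and 0.914 for complex V, the median log2 ratio was -0.13 and 43 promoters were at least 1.1-fold lower. Scaled to all protein-coding promoters, the ratios were 0.970 for all genes, 0.967, 0.989, 0.964 and 0.969 for complexes I, III, IV and V and 0.965 for assembly factors, the median was -0.048, and 13 promoters were lower and 2 higher. Scaled to the median promoter, they were 0.973, then 0.971, 0.993, 0.967 and 0.973, and 0.969, with a median of -0.042 and 12 lower and 2 higher promoters. The median log2 ratio of all promoters moved from -0.056 to -0.089, -0.0055 and 0 under these scalings, which shifts every promoter alike and so leaves the respiratory median 0.042 below it. The alternatives that can change this gap gave -0.030 with thinned cells, -0.032 with 250 bp or 500 bp windows, -0.054 with cells of 6000 to 12000 in-peak fragments and -0.059 with no minimum. Short fragments gave 0.949 for all genes, 0.958 for complex IV, 0.959 for complex V and 0 higher promoters, and cut sites gave 0.945 for all genes. With 250 bp windows the assembly factors were at 0.904, and 0 promoters were higher with 250 bp or 500 bp windows or with cells of 6000 to 12000 in-peak fragments. Without windows that held another TSS, complex II, then only Sdhb, was at 0.990 and 16 promoters were lower, as 36 genes fewer were tested. Without a minimum 5 promoters were higher, the added ones with few fragments. The mitochondrial ratio was 0.5002 from summed pairs. Of 234 values for single genes, 226 stayed within the counting interval. Atp5j2 reversed to 0.18 with 250 bp windows (75 and 64 fragments) and Atp5d to 0.016 with cells thinned to 3000 in-peak fragments. Sdhaf1, the promoter at least 1.1-fold higher, with an interval that included 0, changed sign to -0.22 with 500 bp windows, -0.76 with 250 bp windows and -0.29 with short fragments. Values of Atp5g2 and Cox7a2, among others, also left their counting intervals, and Cox7a2, Ndufb7, Atp5s, Uqcrq and Ndufaf5, with intervals that included 0, changed sign under at least 1 alternative. The cause was not tested except where stated. No paired analysis was possible because each group held 1 library and no result came from a test. Left-out replicates could not be tried for the same reason.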
